A study of Mus musculus with 14 samples.

Results

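The liver lobule is laid out between the portal triad, where blood enters, and the central vein, where it leaves, and 10 genes that mark the ends of this axis were examined in livers of mice treated with mesenchymal stem cells (MSCs). The pericentral genes were Glul, Oat, Rhbg, Slc1a2, Cyp2e1 and Lgr5, and the periportal genes were Hal, Sds, Gls2 and Cdh1. A gene was represented by the probe set, a group of array probes read out as 1 value, that is annotated to that gene symbol alone and has the highest mean over 14 arrays. By this rule 8 of the 10 genes were measured, out of 19938 genes with a probe set of a single symbol, and Sds and Gls2 were not analysed here. The periportal end of the axis therefore rests on 2 genes, Hal and Cdh1.

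All mice were male C57BL/6 mice, 24 weeks old, that had eaten a high-fat diet for 20 weeks. The HFM group (7 mice) had received human bone marrow MSCs, labelled with GFP and taken from a single donor, through the tail vein. The HFS group (7 mice) had received the vehicle, called saline in the labels and PBS in part of the methods. Livers were taken 24 h after the injection, and each array held the RNA of 1 mouse. All mice were fed the high-fat diet, so no lean liver enters any comparison below, and a single donor limits what the HFM group stands for.

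Hepatocytes differ in their work along the lobule. Those at the portal end make urea and glucose and break down amino acids, while a narrow ring around the central vein captures the ammonia that escapes urea synthesis and fixes it into glutamine. Wnt proteins from the endothelium of the central vein, acting through beta-catenin, maintain the pericentral program, and loss of this signal is known to let periportal genes extend toward the centre. In whole liver tissue, fewer cells of a type and less RNA per cell cannot be told apart, and the position of a transcript in the lobule was not measured.

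The bases before the start of transcription are shown for the 3 genes on which the results turn, Oat and Slc1a2, which moved together between mice, and Hal, which had the lowest unadjusted p value of the members. They are RefSeq sequences of build GRCm38.p6, 250 bases each, written 5' to 3' on the strand of the gene. Capitals mark the letters CTTTGA, or their reverse complement, which are part of the site bound by the TCF and LEF partners of beta-catenin.
Slc1a2, chr2:102706188-102706437, plus strand: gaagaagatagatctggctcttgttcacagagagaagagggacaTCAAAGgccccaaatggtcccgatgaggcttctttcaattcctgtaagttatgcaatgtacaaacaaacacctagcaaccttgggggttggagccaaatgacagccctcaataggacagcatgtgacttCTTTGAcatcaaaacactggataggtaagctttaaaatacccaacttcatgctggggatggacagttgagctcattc
Oat, chr7:132576399-132576648, minus strand: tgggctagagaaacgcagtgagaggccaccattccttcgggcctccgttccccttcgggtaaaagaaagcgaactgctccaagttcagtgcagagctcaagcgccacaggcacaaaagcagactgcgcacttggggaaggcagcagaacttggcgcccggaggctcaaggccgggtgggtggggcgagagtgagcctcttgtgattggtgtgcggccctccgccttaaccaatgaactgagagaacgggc
Hal, chr10:93488518-93488767, plus strand: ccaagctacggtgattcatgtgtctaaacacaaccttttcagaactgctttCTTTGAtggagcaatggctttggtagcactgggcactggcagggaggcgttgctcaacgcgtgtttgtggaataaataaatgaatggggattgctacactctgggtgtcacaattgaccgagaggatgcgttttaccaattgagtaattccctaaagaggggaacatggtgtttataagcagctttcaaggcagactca
In Slc1a2 the letters stood at 77 to 72 bases before the start and, on the other strand, at 206 to 201 bases before it. This start lies inside the Slc1a2 locus of the same build, so other starts of the gene lie further upstream. In Hal they stood at 199 to 194 bases before the start, and Oat had none. Promoters of 5 members were found in the table used, and Cyp2e1, at 135 to 130 bases before its start, was the third with a match while Glul had none. CTTTGA on either strand was found in 3 of these 5 and in 4544 of 32851 promoter windows (13.8%). The letters CAAAGTCCA, bound by HNF4, whose CAAAG is the reverse complement of CTTTG, were found in 0 of the 5 and in 0.384% of all windows. TTCNNNGAA, bound by STAT proteins, was found in 0 of the 5 and in 7.02% of all windows. A match describes letters only, and binding was not measured.

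The deposited values are log2 expression. They ran from 1.33 to 14.06 over all arrays, the medians of the arrays lay between 4.24 and 4.35, and pairs of arrays correlated at 0.979 to 0.995. In limma's fit of HFM minus HFS over 23410 probe sets, 0 passed an adjusted p of 0.05, which is 0% of those tested, and 1514 passed an unadjusted p of 0.05, which is 6.47%. Of all probe sets tested, 51.4% had a difference above 0 and the median difference was 0.00. Markers of hepatocytes were bright in every mouse, with list means of 11.94 to 12.22 in HFM livers and 11.99 to 12.12 in HFS livers. The 2 HFS mice numbered 3 and 4 had the lowest list means for the acute phase genes of hepatocytes, 9.07 (HFS3) and 9.16 (HFS4), against 9.42 to 10.62 in the other 12 mice. HFS2 (9.42) and HFS7 (9.46) came next, so HFS3 and HFS4 were the low end of a run of HFS values and not a separate pair. HFS3 and HFS4 were also among the lowest mice for several members, so the members, and the genes named from each list, are given with and without them below. This pair was chosen after the values were seen.

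No member passed an adjusted p of 0.05 in limma. At an unadjusted p of 0.05, 1 of the 8 measured members was higher in HFM livers (Hal), where 3.57% of all probe sets were, and 0 were lower, where 2.9% were. The methods combined a p below 0.01, a change of 1.2-fold or more and a Bonferroni correction. With the p and fold limits alone, 0 members and 0.696% of all probe sets passed, and with a Bonferroni-corrected p of 0.05 in limma 0 members and 0 probe sets did. With an unmoderated test 0 members passed an unadjusted p of 0.05. Of the 8 members, 3 had a difference above 0 and 5 below it. A p value that misses the threshold does not show that 2 groups are equal, and the 95% interval of each difference is therefore given.

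**Figure D1:**
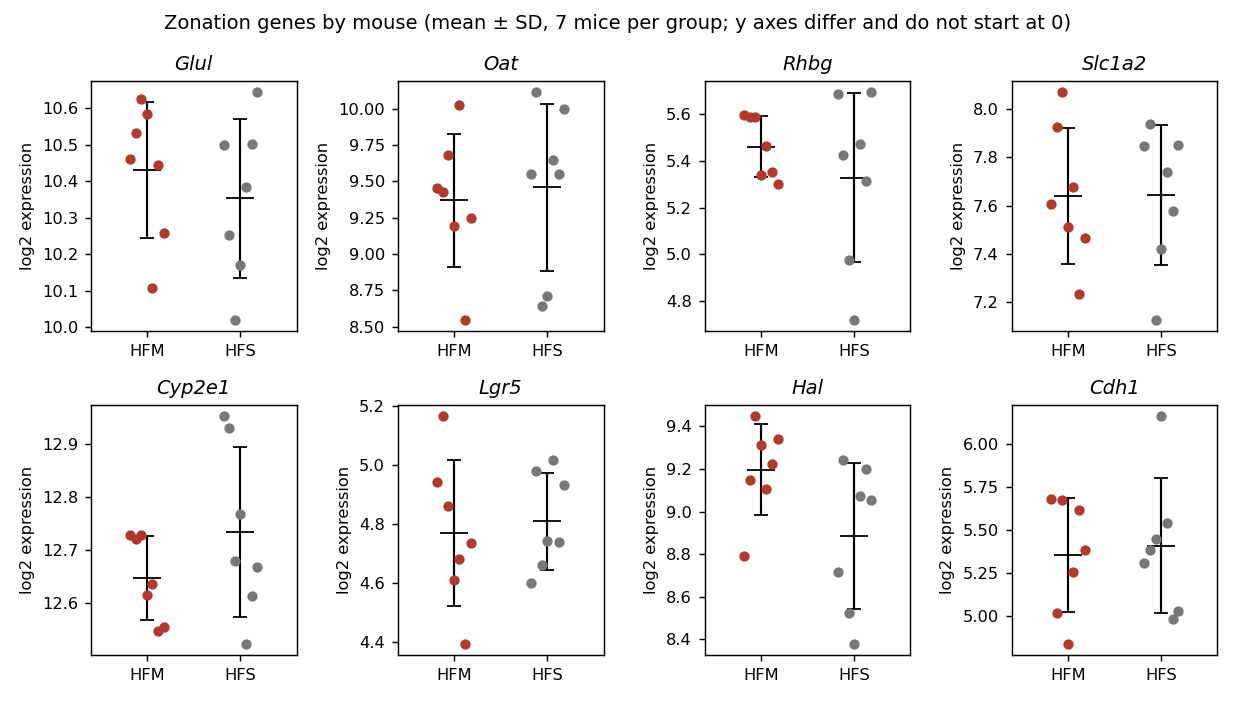
Log2 expression of each measured member in every mouse, with 7 HFM mice on the left and 7 HFS mice on the right of each panel. Black bars are the mean and SD, the y axes differ between panels, and the groups overlap in all 8.

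Glul encodes glutamine synthetase, the enzyme that joins ammonia to glutamate in the last ring of hepatocytes before the central vein. The lowest, median and highest mice were at 10.11, 10.46 and 10.63 in HFM livers, against 10.02, 10.38 and 10.64 in HFS livers. The ranges of the groups were nearly the same. The means were 10.43 ± 0.19 in HFM livers and 10.35 ± 0.22 in HFS livers (SD, n = 7 each). The difference was 0.08 (standard error 0.10, interval -0.13 to 0.29, exact permutation p = 0.480, limma adjusted p = 0.907). A second Glul probe set gave a difference of 0.08 as well, and the values of both correlated at 0.906 over the 14 mice. The Glul difference was -0.03 without HFS3 and HFS4, so its sign rests on those mice.

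Oat encodes ornithine aminotransferase, which turns ornithine into a precursor of glutamate and so feeds glutamine synthesis in the same ring of cells. Its lowest, median and highest values were 8.55, 9.42 and 10.03 in HFM mice, against 8.64, 9.55 and 10.11 in HFS mice. Low mice occurred in both groups, HFM6 at 8.55, HFS3 at 8.64 and HFS4 at 8.71, and the ranges overlapped almost fully. The SD within groups was 0.52, higher than in 99.4% of all probe sets tested. The means were 9.37 ± 0.46 in HFM livers and 9.46 ± 0.58 in HFS livers (SD, n = 7 each). The difference was -0.09 (standard error 0.23, interval -0.57 to 0.39, exact permutation p = 0.742, limma adjusted p = 0.960). Oat was the member for which the data bounded a change least. When HFS3 and HFS4 were left out the difference was -0.40 (standard error 0.19, past an unadjusted p of 0.05, limma adjusted p = 0.946). They were the lowest HFS mice for Oat, so leaving them out could only lower the difference. No conclusion is drawn from that pass. With HFM6 alone left out the difference was 0.05.

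Slc1a2 encodes a glutamate transporter, known as GLT-1, that hepatocytes around the central vein use to take up glutamate from the blood. The lowest, median and highest values were 7.24, 7.61 and 8.07 in HFM mice, against 7.13, 7.74 and 7.94 in HFS mice. HFM6 and HFS3 were the lowest of their groups, as they were for Oat. The means were 7.64 ± 0.28 in HFM livers and 7.64 ± 0.29 in HFS livers (SD, n = 7 each). The difference was 0.00 to 2 decimals (standard error 0.13, interval -0.28 to 0.27, exact permutation p = 0.985, limma adjusted p = 0.998), and -0.15 without HFS3 and HFS4.

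Rhbg encodes an ammonia channel of the Rh family on the basolateral side of pericentral hepatocytes. Its lowest, median and highest values were 5.30, 5.46 and 5.59 in HFM mice, against 4.72, 5.43 and 5.69 in HFS mice. The HFM mice lay close together and HFS4 (4.72) and HFS3 (4.98) lay below all of them. The means were 5.46 ± 0.13 in HFM livers and 5.33 ± 0.36 in HFS livers (SD, n = 7 each). The difference was 0.13 (standard error 0.13, interval -0.13 to 0.40, exact permutation p = 0.389, limma adjusted p = 0.871), and it was -0.06 without HFS3 and HFS4.

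Cyp2e1 encodes a cytochrome P450 that oxidizes ethanol and acetaminophen and reaches further out from the central vein than Glul does. The lowest, median and highest values were 12.55, 12.64 and 12.73 in HFM mice, against 12.52, 12.68 and 12.95 in HFS mice. All 7 HFM mice were below the HFS mean, and HFS1 (12.95), HFS2 (12.93) and HFS4 (12.77) were above every HFM mouse. The means were 12.65 ± 0.08 in HFM livers and 12.73 ± 0.16 in HFS livers (SD, n = 7 each). The difference was -0.09 (standard error 0.07, interval -0.24 to 0.06, exact permutation p = 0.231, limma adjusted p = 0.847), and was the same without HFS3 and HFS4, at -0.09. It was the narrowest interval of the 8 members.

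Lgr5 encodes a receptor for R-spondins, which strengthen Wnt signals, and is itself switched on by beta-catenin near the central vein. The lowest, median and highest values were 4.39, 4.74 and 5.17 in HFM mice, against 4.60, 4.74 and 5.02 in HFS mice. The HFS range lay inside the HFM range, and the lowest of all mice was HFM6. The means were 4.77 ± 0.25 in HFM livers and 4.81 ± 0.16 in HFS livers (SD, n = 7 each). The difference was -0.04 (standard error 0.10, interval -0.25 to 0.18, exact permutation p = 0.733, limma adjusted p = 0.960). The difference was -0.08 without HFS3 and HFS4, and 0.02 with HFM6 left out.

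Hal encodes histidine ammonia-lyase, the first enzyme of histidine breakdown, which periportal hepatocytes carry. The lowest, median and highest values were 8.79, 9.22 and 9.45 in HFM mice, against 8.38, 9.05 and 9.24 in HFS mice. The 3 lowest mice were of the HFS group, HFS4 at 8.38, HFS3 at 8.52 and HFS1 at 8.72, while 3 HFM mice were above every HFS mouse and 6 of 7 were above the HFS mean. The means were 9.20 ± 0.21 in HFM livers and 8.88 ± 0.34 in HFS livers (SD, n = 7 each). Hal was higher in HFM livers by 0.31 (standard error 0.13, interval 0.04 to 0.59), or 1.24-fold, with an unadjusted limma p of 0.0292 and an adjusted p of 0.768. The two-sided exact permutation test over 3432 assignments of the mice gave p = 0.0641. The unadjusted limma p was above 0.05 when HFM3, HFM4, HFM7, HFS1, HFS3 or HFS4 was left out, with differences of 0.23 (HFS4) to 0.29 (HFM4). Without HFM1 the difference was 0.38, and without HFS3 and HFS4 it was 0.14 and did not pass either. Both mice were the lowest HFS mice for Hal, so leaving them out could only lower the difference. They also had the lowest acute phase means. HFS2 and HFS7, next lowest in those means at 9.42 and 9.46, were at 9.24 and 9.05 for Hal. The part of HFS3 and HFS4 in the Hal difference was not tested.

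Cdh1 encodes E-cadherin, the adhesion protein that joins epithelial cells and is more abundant in periportal hepatocytes and bile ducts. The lowest, median and highest values were 4.84, 5.39 and 5.68 in HFM mice, against 4.99, 5.38 and 6.16 in HFS mice. HFS4 was the highest mouse of all, at 6.16, and HFM4 the lowest, at 4.84. The means were 5.36 ± 0.33 in HFM livers and 5.41 ± 0.39 in HFS livers (SD, n = 7 each). The difference was -0.05 (standard error 0.16, interval -0.40 to 0.29, exact permutation p = 0.789, limma adjusted p = 0.964), and 0.10 without HFS3 and HFS4. The spread of Cdh1 within groups was above that of 98% of all probe sets. Cholangiocyte markers, of which 5 of 7 were measured, had list means of 3.95 to 4.22 in HFM livers and 4.0 to 4.2 in HFS livers, and 0 of the 5 passed an unadjusted p of 0.05. All these list means lay below the median of every array (4.24 to 4.35). At such low values the count cannot show whether bile duct cells differed.

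**Figure D2:**
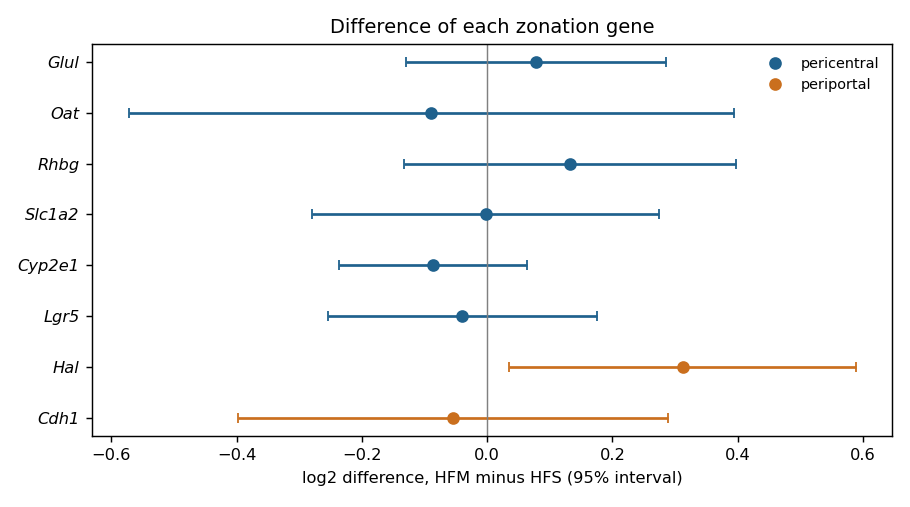
Log2 difference of each member, HFM minus HFS, with its 95% interval from limma, pericentral genes in blue and periportal genes in orange. The Hal interval, 0.04 to 0.59, is the one that does not cover 0, and the Oat interval is the widest.

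Averaged per mouse, the pericentral genes (each centred on its mean over the 14 mice) lay at -0.30 to 0.21 in HFM livers and -0.37 to 0.24 in HFS livers. The periportal average of Hal and Cdh1 differed by 0.13 between groups, with an SD of 0.18 in HFM livers and 0.15 in HFS livers. No test was made of these averages. HFM6, HFS3 and HFS4 were the mice with the lowest pericentral averages, at -0.30, -0.37 and -0.30.

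**Figure D3:**
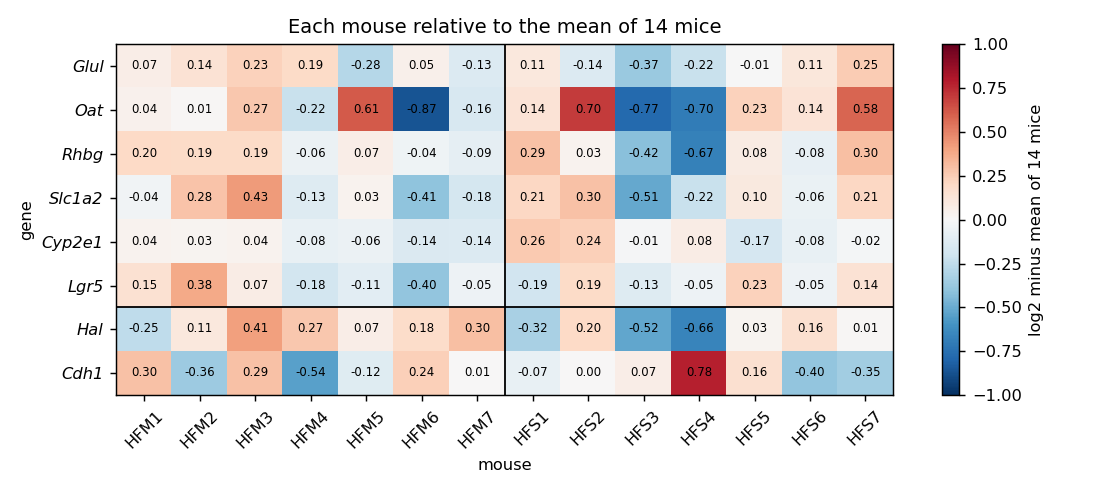
Each member in each mouse as log2 value minus the mean of the 14 mice, HFM mice on the left and HFS mice on the right, pericentral genes above the line and Hal and Cdh1 below it. Oat is far below its mean in HFM6, HFS3 and HFS4, and Hal in HFS3 and HFS4.

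Which members moved together from mouse to mouse was examined after the group means were removed, over all 28 pairs of the 8 genes. Oat and Slc1a2, which both serve glutamate supply, moved together most closely (Pearson r = 0.823, permutation p = 0.00076, adjusted over the 28 pairs 0.0213). Spearman's rho for this pair was 0.798 (permutation p = 0.00164, adjusted 0.0459). It held within each group, at 0.704 in HFM livers and 0.924 in HFS livers. Without HFM6 and HFS3, the mice farthest from the median of Oat, r was 0.656, and without HFS3 and HFS4 it was 0.705. Both transporters, Rhbg for ammonia and Slc1a2 for glutamate, also moved together (r = 0.732, permutation p = 0.0023, adjusted 0.0322). For this pair rho was 0.758 (permutation p = 0.00341, adjusted 0.0477), with r at 0.786 in HFM livers and 0.811 in HFS livers, and 0.658 without HFS3 and HFS4, which are also the 2 mice farthest from the median of Rhbg. Oat and Rhbg gave r = 0.735 (permutation p = 0.00763, adjusted 0.0712) and rho = 0.666 (adjusted 0.114), but r was 0.369 without HFS3 and HFS4. All 15 pericentral pairs had r above 0, with a median of 0.485, and 14 of 15 without HFS3 and HFS4, with a median of 0.388. Glul and Cyp2e1 gave the lowest, 0.06. Of 12 pairs across the zones 6 were above 0, and the 2 periportal genes differed in this. Hal was above 0 with 5 of the 6 pericentral genes (median 0.451) and Cdh1 below 0 with 5 of 6 (median -0.303). With HFS3 and HFS4 left out these medians were 0.01 for Hal and 0.03 for Cdh1, and 8 of the 12 pairs were above 0. Oat and Hal correlated at -0.132 in HFM livers and 0.882 in HFS livers. Their r over the mice other than HFS3 and HFS4 was 0.03, and the difference between groups was not tested. Hal and Cdh1, the periportal pair, gave r = -0.508 (adjusted 0.259) and -0.162 without HFS3 and HFS4. All genes of a mouse share 1 array and 1 RNA sample.

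**Figure D4:**
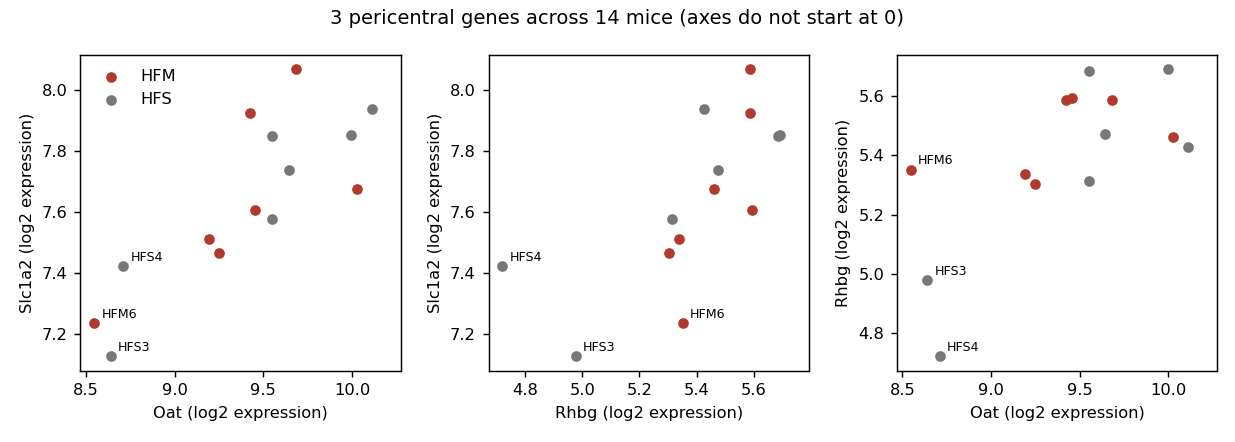
Oat, Rhbg and Slc1a2 plotted against each other, 1 point per mouse in log2 expression, HFM and HFS mice in separate colours. Low values of one gene go with low values of the others in both groups, and HFM6, HFS3 and HFS4 are named.

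The genes most like each member across the 14 mice were taken from 9968 genes above the median level, with group means removed, and are a description with no test. Each r includes HFS3 and HFS4, and r without them was not computed for these genes. For Glul they were Rarres2 (r = 0.951), Gpx4 (0.939) and Wfdc2 (0.929). For Oat they were Gnmt (0.851), Ndufb3 (0.847) and Sardh (0.839), and for Slc1a2 Sardh (0.892), Tlcd2 (0.889) and Dcaf11 (0.861). Gnmt and Sardh, both enzymes of glycine and sarcosine metabolism, thus appeared with Oat, and Sardh with Slc1a2 as well. Oat and Slc1a2 themselves correlated at 0.823, so a gene shared by both is not separate from that pair. For Rhbg they were Cyp8b1 (0.852), Gm21286 (0.845) and Gnmt (0.838). For Cyp2e1 they were Scap (0.893), Afmid (0.827) and Aspscr1 (0.816), and for Lgr5 Sirt6 (0.845), Ppm1f (0.819) and Arhgap26 (0.807). For Hal they were Got1 (0.899), Slc7a2 (0.880) and Dpyd (0.855), and for Cdh1 Unc13b (0.810), Tmem39a (0.796) and Bmerb1 (0.786).

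Hal opens a short pathway in which urocanase (Uroc1), imidazolonepropionase (Amdhd1) and formiminotransferase (Ftcd) carry histidine to glutamate. Amdhd1 was the clearest of the 3, at 7.93, 8.24 and 8.39 (lowest, median and highest) in HFM mice, against 7.78, 8.01 and 8.22 in HFS mice. It was higher by 0.25 (standard error 0.09, limma adjusted p = 0.749), with an exact permutation p of 0.0297 and an unadjusted limma p of 0.0130. In 4 HFM mice it was above every HFS mouse. Uroc1 differed by 0.19 (standard error 0.09, exact permutation p = 0.0723) and Ftcd by 0.17 (standard error 0.09, exact permutation p = 0.0973). Ftcd was named after its values were seen. In each of the 4 genes 6 of 7 HFM mice were above the HFS mean. Uroc1 correlated with Hal at 0.85, Amdhd1 at 0.842 and Ftcd at 0.518 across the mice. These r values include HFS3 and HFS4, the lowest mice for Hal, Uroc1 and Amdhd1, and r without them was not computed. HFS4 was also the lowest mouse for Ftcd. The differences without HFS3 and HFS4 were 0.18 for Amdhd1, 0.08 for Uroc1 and 0.10 for Ftcd, and none passed an unadjusted p of 0.05. Of 12 measured genes (14 listed) for histidine, serine, threonine and glycine breakdown, 2 were higher, Amdhd1 and Cbs, which makes cystathionine from serine and homocysteine and differed by 0.26 (standard error 0.11, exact permutation p = 0.0589) and by 0.31 without HFS3 and HFS4. The other 10 passed in neither direction, and the median difference was 0.05. Over all probe sets tested, 3.57% were higher and 2.9% lower at an unadjusted p of 0.05 in limma.

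**Figure D5:**
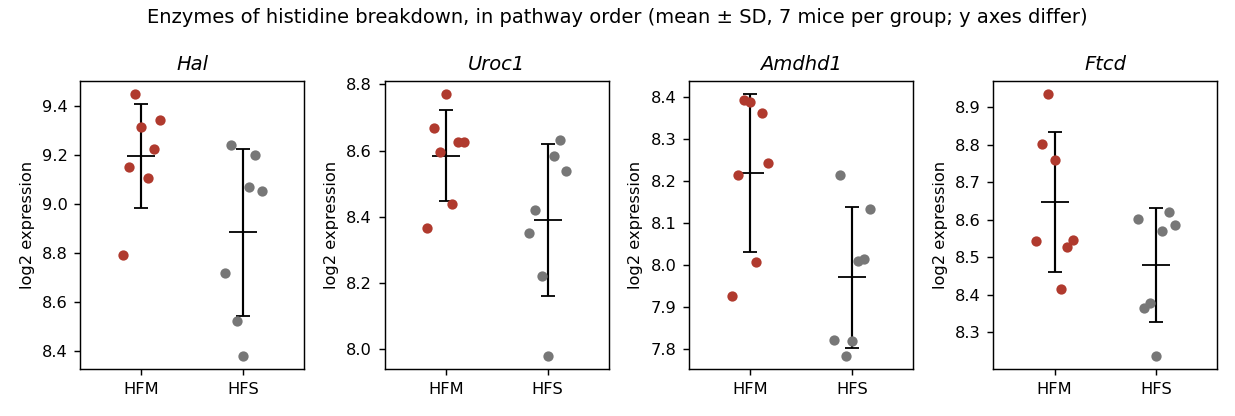
The 4 enzymes of histidine breakdown in pathway order, as log2 expression in every mouse, HFM mice on the left and HFS mice on the right of each panel, with mean and SD. HFM mice lie higher on average in each panel and the groups overlap in all 4.

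Of 18 measured further pericentral genes (20 listed), 1 was higher, 3 were lower and 14 passed in neither direction at an unadjusted p of 0.05, with a median difference of -0.06. The shares over all probe sets tested were 3.57% higher and 2.9% lower, and each list count below is to be read beside them. Notum encodes a secreted enzyme that inactivates Wnt proteins and is itself a target of beta-catenin. Its values were 5.48 to 5.88 in HFM livers, with a median of 5.76, and 5.82 to 6.11 in HFS livers, with a median of 5.94. HFS5 was the single HFS mouse within the range of the HFM mice. Notum was lower by 0.25 (difference -0.25, standard error 0.07, exact permutation p = 0.00117, limma adjusted p = 0.714), and the difference was -0.25 without HFS3 and HFS4. Cyp1a2, a P450 that oxidizes caffeine, had a difference of -0.58 (standard error 0.22, exact permutation p = 0.0542), which was -0.35 without those mice, and Avpr1a, the vasopressin receptor, which was named after its values were seen, of -0.39 (standard error 0.18, exact permutation p = 0.0367). HFM mice were at 4.74 to 5.36 for Avpr1a, and HFS4 alone was at 6.56, without which the difference was -0.20 (-0.21 without HFS3 and HFS4). Slc13a3, a carrier of dicarboxylates, was higher by 0.18 (exact permutation p = 0.0478), and by 0.18 without those mice, no longer past the threshold. Notum was the 1 gene of the 18 that passed without HFS3 and HFS4.

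Of 14 measured further periportal genes (15 listed), 2 were higher, 1 was lower and 11 passed in neither direction, with a median difference of 0.12. G6pc, the glucose phosphatase of gluconeogenesis, had a difference of -0.79 (standard error 0.26, exact permutation p = 0.0326) and -0.75 without HFS3 and HFS4. Pigr, the receptor that carries IgA into bile, was higher by 0.18 (exact permutation p = 0.0624) and Aldh1b1, a mitochondrial aldehyde dehydrogenase, by 0.30 (exact permutation p = 0.0956), and without HFS3 and HFS4 they were at 0.08 and 0.12 and neither passed. All 9 measured urea cycle genes (10 listed) passed in neither direction, with a median of 0.12, and the 3 with the smallest p were Car5a at 0.16, Asl at 0.14 and Slc25a15 at 0.13. Without HFS3 and HFS4 Car5a and Slc25a15 were at 0.07 and Asl at 0.00 to 2 decimals.

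Genes that work beside the members were counted in the same way. Over all 130 genes of these lists the smallest limma adjusted p was 0.714. Of 18 measured genes (19 listed) for glutamine, glutamate and ammonia handling, 2 were higher, 1 lower and 15 in neither direction, with a median difference of 0.06. Gpt, which transfers the amino group of alanine, was higher by 0.24 (exact permutation p = 0.0554), Aqp8, a channel for water and ammonia, by 0.48 (exact permutation p = 0.0816), and Slc38a2, a glutamine carrier, was lower, at -0.27 (exact permutation p = 0.0769). Without HFS3 and HFS4, Aqp8 was at 0.44, near its size over all mice, while Gpt was at 0.12 and Slc38a2 at -0.11, and 0 of the 18 passed. For ornithine, proline and polyamine enzymes, 9 of 12 were measured, 1 was higher and 8 passed in neither direction, with a median of 0.08. The 1 was Aldh4a1, which completes the conversion of proline to glutamate, at 8.48 ± 0.07 in HFM livers and 8.25 ± 0.18 in HFS livers. It was higher by 0.23 (standard error 0.07, exact permutation p = 0.00524, limma adjusted p = 0.714). The difference was 0.14 and no longer passed without HFS3 and HFS4, the 2 lowest mice for it at 8.01 and 8.04. Prodh, which begins that conversion, differed by 0.27 (exact permutation p = 0.0973), by 0.17 without HFS4 and by 0.07 without HFS3 and HFS4. Pycrl, an enzyme of proline synthesis, differed by 0.09 both with and without those mice.

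The Wnt and beta-catenin pathway, which holds the signals and receptors that maintain the pericentral program, had 26 measured genes (27 listed), of which 0 passed an unadjusted p of 0.05 in limma, with a median difference of -0.01. The smallest p values were for Lgr4, another R-spondin receptor (0.19, exact permutation p = 0.101), Pygo2, a partner of beta-catenin in the nucleus (-0.13, exact permutation p = 0.0583), and Lrp5, a Wnt co-receptor (0.13, exact permutation p = 0.0985). Without HFS3 and HFS4 these were 0.22, -0.16 and 0.11. This list does not hold Notum, Axin2, Rnf43, Znrf3, Nkd1 and Sp5, which were counted with the further pericentral genes. Of these, Notum alone passed an unadjusted p of 0.05 in limma, and was lower in HFM livers. The count of 0 therefore covers the listed genes only. Of 7 cadherins and catenins, the partners of Cdh1 at the cell junction, 0 passed, with a median of 0.14, and Ctnna1 differed by 0.14 (exact permutation p = 0.0705), Jup by 0.18 and Ctnnd1 by 0.13, or 0.15, 0.10 and 0.11 without those mice. Of 9 measured other regulators of zonal expression (10 listed) 0 passed, with a median of 0.07, and the 3 with the smallest p were Yap1 at 0.12, Cebpa at 0.10 and Epas1 at 0.10, or 0.13, 0.09 and 0.07 without those mice. Central vein endothelial markers (5 measured) had 0 past the threshold and list means of 4.64 to 4.82 in HFM livers and 4.67 to 4.80 in HFS livers.

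Other lists of marker genes were read in the same mice, and their part in the differences above was not tested. The authors had reported Saa1, Saa3, Lcn2, Cd5l and Adgre1 as upregulated in these arrays. They also listed Hp, Hpx, Marco, Cd68 and C1qa among genes with differential expression. The acute phase and macrophage counts below were therefore partly set in advance and are a description only. All 10 acute phase genes had differences above 0, 7 of them past an unadjusted p of 0.05, with a median of 0.29 (0.285 without HFS3 and HFS4) and list means of 9.97 to 10.62 in HFM livers against 9.07 to 10.57 in HFS livers. These list means averaged 10.4 in HFM livers and 9.65 in HFS livers. Without HFS3 and HFS4 the HFS average was 9.86, so the groups lay closer by this measure. All 9 markers of Kupffer cells and macrophages were above 0, 4 of them past the threshold, with a median of 0.31 (0.27 without HFS3 and HFS4) and list means of 6.49 to 7.53 in HFM livers and 6.19 to 7.28 in HFS livers. Of 6 stellate cell markers 5 were above 0 and 1 was higher past the threshold, with a median of 0.20 and list means of 6.52 to 6.99 in HFM livers and 6.51 to 6.82 in HFS livers. Of 6 markers of sinusoidal endothelial cells 3 were above 0 and 1 was higher past the threshold, with a median of 0.06 and list means of 6.68 to 7.00 in HFM livers and 6.60 to 6.94 in HFS livers. The 6 neutrophil markers did not pass the threshold, and their direction depended on single mice, HFM2 and HFS5. Their list mean was 5.43 in HFM2 and 3.5 to 3.79 in the other HFM mice. In HFS5 it was 4.33, and 3.42 to 3.65 in the other HFS mice. All 6 differences were above 0 with all mice (median 0.25), and 1 of 6 without HFM2 (median -0.07). Without HFS5 all 6 were above 0 (median 0.36). The list averaged 3.59 in HFM mice without HFM2 and 3.52 in HFS mice without HFS5. Hepatocyte markers, 7 of 8 measured, had 0 past the threshold and a median of -0.02.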

How the data were processed

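Liver RNA of 14 mice was hybridized to Affymetrix Mouse Gene 1.0 ST arrays, 1 mouse per array. Each value deposited by the authors is the log2 expression of 1 probe set, summarized and normalized between arrays in Expression Console, by RMA per the labels but by PLIER per the methods. For its version, annotation and build, nothing is stated in what was read here. The table holds no authors' comparisons, and 0 value columns were left out. Group and mouse number came from the labels.

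Of 35556 probe sets, 23410 with at least 1 symbol were tested, 21789 of them with exactly 1 symbol, 1621 with several, and 12146 without a symbol were not used. Symbols came from the platform annotation, which can be old. In a RefSeq table (GRCm38.p6), 21698 of the 1-symbol probe sets matched and 0 symbols changed. Differences are HFM minus HFS from limma 3.58.1 (R 4.3.3), lmFit and eBayes, no covariate, Benjamini-Hochberg adjustment over all probe sets, thresholds 0.05, and the p and fold limits of the methods (unadjusted p under 0.01, at least 1.2-fold), with the Bonferroni step, which the methods also applied, counted apart. Single genes had a two-sided exact permutation test over 3432 assignments, whose smallest p is 0.000583. Correlations removed group means and used 100000 permutations of mice within groups (Python 3.11.15, SciPy 1.17.1), over 28 pairs because 2 members were not analysed. The self-test used simulated data. No litter or scan batch is given, and 7 mice per group limit the precision.

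Named genes were the members, the 3 genes with the smallest p in each list, and the 3 genes most like each member, with exceptions marked. Members, lists and tests were chosen with earlier results of these data known. Alternatives were a replicate block, quantile normalization, median centring, array weights, a trended prior, the brighter probe sets by mean level, a test without moderation, every row of the table, 1 row per gene, the mean over the rows of a gene, no removal of group means, each mouse left out, and, added after the data were seen, HFS3 and HFS4 both left out, a Bonferroni correction and marker lists with mice left out.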

Additional observations from a re-analysis of the deposited data

How the results depend on the processing

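No member passed an adjusted p of 0.05 under any alternative. Over the mice left out in turn, probe sets past an adjusted p of 0.05 ran from 0 to 1 (1 without HFS6), those past an unadjusted p of 0.05 from 1082 to 2465 (2465 without HFM7), members past it from 0 to 1, and members past the p and fold limits of the methods from 0 to 1, the 1 being Hal without HFM1 (0.38). With the brighter probe sets, 749 of 11705 passed an unadjusted p of 0.05, with fewer tested. With the unmoderated test 0 members passed, Hal being the 1 lost. The small differences changed sign. Median centring gave 0.0246 for Slc1a2, and leaving out single mice gave -0.226 to 0.0477 for Oat, -0.0885 to 0.0649 for Slc1a2, -0.106 to 0.0230 for Lgr5 and -0.125 to 0.0705 for Cdh1. Without HFS3 and HFS4, a pair chosen after the data were seen, Glul was at -0.0258, Rhbg at -0.0581, Cdh1 at 0.103 and Asl at -0.00301, Oat passed an unadjusted p of 0.05 in the direction of lower and Hal did not pass, and 1069 probe sets passed it. HFS3 and HFS4 were the lowest HFS mice for Oat and for Hal. The direction of both shifts was therefore set by the choice of the pair. Why these mice were low was not tested. Genes past an unadjusted p of 0.05 over the mice left out ran from 2 to 6 in the pericentral list, 1 to 3 in the periportal list, 0 to 5 in glutamine and ammonia handling, 1 to 2 in ornithine and proline enzymes, 1 to 4 in histidine breakdown, 0 to 3 in cadherins and catenins, 0 to 2 in the Wnt list and 0 to 1 in the urea cycle and regulators. With the mouse number as a replicate block 1324 probe sets and 1 member passed an unadjusted p of 0.05, and Hal was at 0.31. Mice of the same number correlated at -0.203 to 0.139 in their deviations from the group means, and 0 HFM mice correlated best with their own number. No pairing by number was seen, and none was tested.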
